A study of Rattus norvegicus with 4 samples.

Results

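Mia2 and 9 other genes of the machinery that carries cargo out of the endoplasmic reticulum (ER) were followed in rat liver RNA. The rows were taken from the deposited gene table by gene symbol, and all 10 symbols were found among 32545 listed genes. Mia2 was chosen by its difference between the groups in these same libraries, where it stood among the genes that were higher under sleep restriction, and the others were added to it by function. The difference between the groups is therefore a description for these genes. It supports nothing about them.

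The study sequenced messenger RNA from rat liver in 4 libraries. In 2 libraries the animals underwent forced activity alone, which served as the control (called controls 1 and 2 below where values are listed). In the other 2 they underwent forced activity with sleep restriction, so both groups share the forced activity. Strain, age, sex and the length of the treatment are not given in the sources used here, nor is whether each library came from a separate animal, so the p-values measure only the spread between these libraries.

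The coat called COPII forms the vesicles that leave the ER. The small GTPase Sar1 is switched on at the ER membrane and recruits Sec23 and Sec24, the inner coat, in which Sec24 binds cargo and Sec23 stimulates the GTPase. Sec13 and Sec31 then form the outer cage. Cargo too bulky for an ordinary vesicle, such as procollagen and lipoprotein particles, needs the membrane proteins Mia3 (also called TANGO1) and Mia2 at the exit sites. In liver this route carries the very low density lipoproteins and the plasma proteins that hepatocytes secrete.

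The Mia2 row does not cover a whole gene. The authors' table holds Mia2 (ENSRNOG00000038832.3, chr6:80188943-80201550 in rn6) and Ctage5 (ENSRNOG00000005101.8, chr6:80218880-80286546 in rn6) as separate entries, whose first bases lie 29937 bases apart. RefSeq lists Ctage5 as another name of Mia2 in a single gene with 2 starts, 30055 bases apart in the GRCr8 build. The locus is known to give a long protein, with a domain inside the ER that binds cargo, and the shorter cTAGE5 protein without it. The Mia2 entry spans 12608 bases and ends before the Ctage5 entry begins, so both entries are reported here. Which RefSeq start belongs to which entry was not tested, since the builds differ.

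The 250 bases before each RefSeq start of Mia2 are shown because the log2 changes of the 2 entries were of different size, a difference that was not tested. Capitals mark GTTAAT on either strand, the core of the sites of HNF1, a transcription factor of hepatocytes. The first window lies at chr6:82522148-82522397 and the second at chr6:82552203-82552452, both on the plus strand of GRCr8.
Mia2 start 1: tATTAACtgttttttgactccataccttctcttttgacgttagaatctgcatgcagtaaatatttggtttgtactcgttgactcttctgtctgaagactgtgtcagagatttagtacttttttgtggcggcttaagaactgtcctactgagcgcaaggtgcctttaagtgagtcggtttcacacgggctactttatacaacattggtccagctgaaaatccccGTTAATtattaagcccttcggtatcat
Mia2 start 2: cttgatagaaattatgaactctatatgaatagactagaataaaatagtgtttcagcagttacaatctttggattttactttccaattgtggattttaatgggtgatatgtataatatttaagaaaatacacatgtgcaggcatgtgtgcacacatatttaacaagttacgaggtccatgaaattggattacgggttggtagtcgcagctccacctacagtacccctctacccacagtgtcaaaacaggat
The window of start 1 holds 2 matches to GTTAAT, which begin 27 and 249 bases before the start, and the window of start 2 holds 0. Of the 33469 RefSeq promoter windows of this length, 6.45% hold at least 1 match. TATAAA, also searched on either strand, was matched 59 bases before start 1, and there it lies on the minus strand, printed above as tttata. It was not matched in the other window, against 12.93% of all windows with a match. Other motifs were searched in both windows too. CCAAT was matched in both, 49 bases before start 1 and 69 and 169 bases before start 2, against 34.02% of all windows. TGACG was matched 216 bases before start 1 and not in the other window, against 18.22% of all windows. The remaining motifs searched had no match in either window. These matches describe the letters only. No binding was measured.

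The tabulated counts summed to between 508202.6 and 520275.6 per library. The values of 3 libraries are whole numbers at only 60.07% to 66.65% of genes, as averages over draws of reads would be. Sleep restriction 2 is whole at 32544 of the 32545 genes and does not look averaged. The highest library for 7 of the 10 genes thus differs from the rest in the kind of its values. Why it differs was not tested. Both replicate 1 libraries had more genes above 0, with 14008 and 14105, than the replicate 2 libraries, with 11943 and 10952. Replicate number therefore runs with the number of genes above 0. That number is not like for like in sleep restriction 2, since an averaged value as low as 0.1 counts as above 0. Differences within each replicate number are given beside the pooled ones. All 8 hepatocyte markers passed the filter on low counts, and Alb took 11.57% to 13.65% of counts. Of these markers 6 had a log2 change above 0 and 2 below, with a median of 0.04. They ran from -0.28 for Ttr, a plasma carrier protein, to 0.69 for the hepatocyte transcription factor Hnf4a. Hnf4a measured 420 and 459 CPM (counts per 1e6 after TMM scaling) in the controls and 636 and 789 CPM with restricted sleep, so its groups did not overlap either. It was not called, and Ttr and Hnf4a are named after their values were seen. Markers of sinusoidal endothelial cells summed to 229.6 and 626.7 CPM in controls 1 and 2, and to 568.7 and 320.6 CPM in the sleep-restricted libraries 1 and 2. Macrophage markers summed to 589.6 and 751.7 CPM, then 930.4 and 615.9 CPM, and red cell genes to 828.0 and 1692 CPM, then 1113 and 649.0 CPM. In these 3 lists forced activity 2 and sleep restriction 1 were the high libraries. Stellate cell markers, at 647.8 and 594.5 CPM, then 718.2 and 549.9 CPM, did not share this pattern. Neither did biliary markers, at 35.6 and 28.7 CPM, then 26.9 and 23.3 CPM, of which 0 passed the filter. In each of these cell type lists no entry was at 0 in all libraries. In bulk tissue, fewer cells of a type and less RNA per cell cannot be told apart. The part of cell makeup in the values below was not tested.

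Mia2, the receptor-like export protein, had its 2 lower values under forced activity and its 2 higher values under sleep restriction, a difference that did not pass the test over all genes. Its counts were 10.2 and 7.3 in controls 1 and 2, and 17.5 and 26 in the sleep-restricted libraries 1 and 2. After scaling these were 20.7 and 13.5 CPM, then 33.8 and 50.5 CPM, and the groups did not overlap. Forced activity 2 was the lowest library and sleep restriction 2 the highest. The means were 17.1 ± 5.04 and 42.2 ± 11.8 CPM (SD, 2 libraries each). The log2 change was 1.19 (standard error, SE, 0.30), which was 0.62 within the replicate 1 libraries and 1.64 within the replicate 2 libraries.

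These are few counts. The 95% Poisson interval for forced activity 1 ran from 4.8 to 18.39 counts. That for sleep restriction 1 ran from 10.67 to 28.45 counts, so the 2 intervals overlapped. In the replicate 2 libraries the intervals were 2.81 to 14.42 and 16.98 to 38.1 counts and did not overlap. Such intervals were set on rounded counts as if each were a single draw of reads, and they cover counting error only. Where a library's values look averaged, as in all but sleep restriction 2, they are not exact. With any 1 library left out, the log2 change of Mia2 lay between 0.92 and 1.47.

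Ctage5, the entry for the rest of the locus, differed less between the groups. It measured 189 and 155 CPM in controls 1 and 2 and 202 and 235 CPM in the sleep-restricted libraries 1 and 2. Again the groups did not overlap, forced activity 2 was lowest and sleep restriction 2 was highest. The log2 change was 0.33 (SE 0.21), with 0.09 within replicate 1 and 0.59 within replicate 2. It was 0.19 without forced activity 2 and 0.48 without forced activity 1. Mia2 made up 9.84% and 8.04% of the counts of both entries in the controls, and 14.34% and 17.69% with restricted sleep. The binomial 95% intervals of these shares, with the same limit, were wide. They ran from 3.15% to 15.21% in forced activity 2 and from 11.89% to 24.83% in sleep restriction 2.

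**Figure D1:**
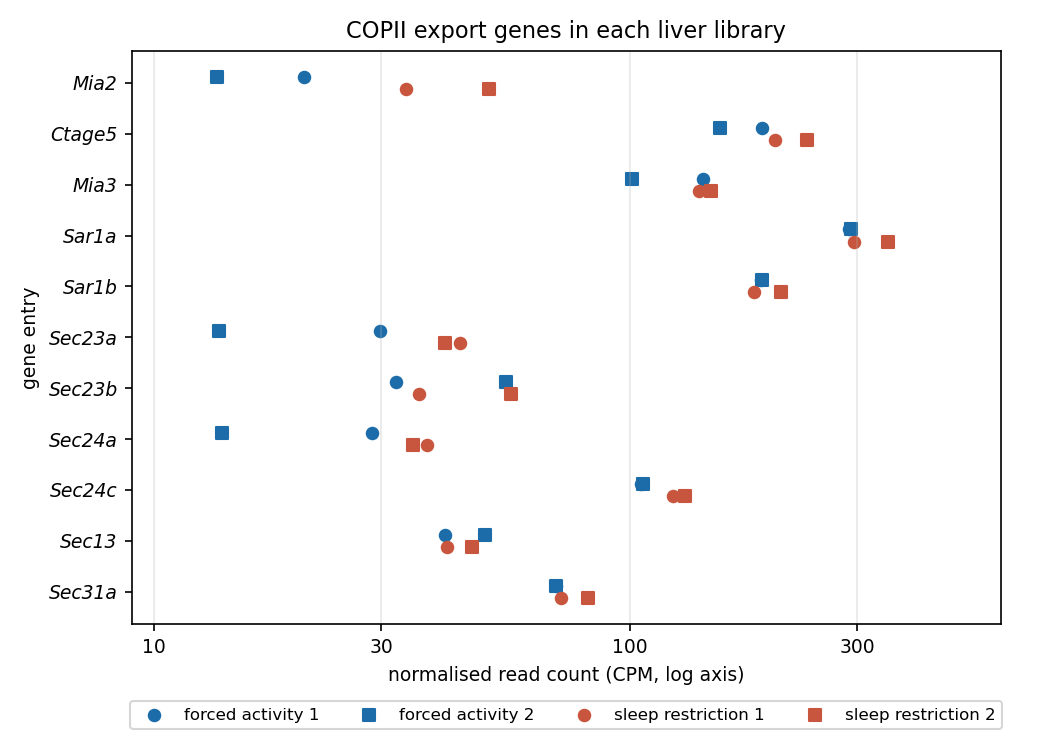
Normalised read count (CPM, log axis) of 11 gene entries in each of the 4 libraries, blue for forced activity and red for sleep restriction, circles for replicate 1 and squares for replicate 2. Mia2 runs from 13.5 to 50.5 CPM with the groups apart, and forced activity 2 is the lowest library for Mia2, Sec23a and Sec24a; levels are not scaled by gene length, so they are not compared between genes.

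Mia3, the partner of Mia2 that binds procollagen through a collagen chaperone, had 143 and 101 CPM in the controls and 140 and 148 CPM with restricted sleep. Here the groups overlapped, and only forced activity 2 stood below the rest. The log2 change was 0.25 (SE 0.23), and it was -0.03 within replicate 1 against 0.53 within replicate 2. Without forced activity 2 it was 0.02, and without forced activity 1 it was 0.50.

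The 2 Sar1 GTPases start coat assembly. Sar1b is the form whose loss in people blocks chylomicron export from the gut. Sar1a measured 288 and 292 CPM in controls 1 and 2, and 295 and 348 CPM in the sleep-restricted libraries 1 and 2, a log2 change of 0.15 (SE 0.20). Sar1b measured 188 and 189 CPM, then 182 and 208 CPM, a log2 change of 0.05 (SE 0.20). In both genes sleep restriction 2 was the high library and the other 3 lay close together. Without sleep restriction 2 the log2 change of Sar1a was 0.03 and that of Sar1b was -0.05. Sar1b held between 37.41% and 39.53% of the counts of the pair in the 4 libraries, and each library's interval contained the shares of the others. Sar1a and Sar1b are close copies, so the division of reads between them is uncertain.

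The inner coat gave different pictures for the 2 forms of Sec23, the subunit that stimulates Sar1. Sec23a measured 29.8 and 13.7 CPM in controls 1 and 2 and 43.9 and 40.8 CPM in the sleep-restricted libraries 1 and 2, with no overlap between the groups. Its log2 change was 0.88 (SE 0.33), 0.51 within replicate 1 and 1.34 within replicate 2. Sec23b measured 32.2 and 54.9 CPM, then 36.0 and 56.3 CPM, and overlapped. It was high in both replicate 2 libraries and low in both replicate 1 libraries, and its log2 change was 0.07 (SE 0.31). Sec23b therefore followed replicate number, with which the number of genes above 0 also runs.

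The size of the Sec23a difference depended on both control libraries. Without forced activity 2 the log2 change of Sec23a was 0.44, and without forced activity 1 it was 1.47. Sec23a held 48.04% of the counts of the Sec23 pair in forced activity 1 and 20% in forced activity 2, against 54.96% and 42% in the sleep-restricted libraries 1 and 2. Forced activity 2 had the lowest share, on 7.4 counts of Sec23a, and the groups overlapped. Its interval of 7.96% to 35.16% overlapped those of forced activity 1 (30.15% to 66.94%) and sleep restriction 2 (28.19% to 56.79%). It did not overlap that of sleep restriction 1 (39.75% to 71.53%). The pair are related genes, and reads that fit both could be split in counting.

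Of the Sec24 cargo-binding subunits, Sec24a had 28.8 and 13.9 CPM in the controls and 37.5 and 35.0 CPM with restricted sleep. The groups did not overlap, and forced activity 2 was again the low library. The log2 change of Sec24a was 0.66 (SE 0.30), and it was 0.34 within replicate 1 and 1.13 within replicate 2. It was 0.30 without forced activity 2 and 1.09 without forced activity 1. Sec24c, a form of the other Sec24 subfamily, had 105 and 106 CPM, then 123 and 130 CPM. In Sec24c the libraries of each group lay close together, the groups did not overlap, and the log2 change of 0.26 (SE 0.20) was nearly the same within replicate 1 (0.21) and replicate 2 (0.28). It lay between 0.22 and 0.28 with any 1 library left out, the narrowest such range of the 10 genes.

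Sec24a and Sar1b are neighbours. Their entries on chromosome 10 of rn6 lie 37 bases apart, and in RefSeq they are read in opposite directions from starts separated by 61 bases. The stretch between the starts is shown because Sec24a had non-overlapping groups and Sar1b did not. Whether the 2 genes differ in their change was not tested. It lies at chr10:36525304-36525364 in GRCr8, is written on the plus strand, towards Sar1b, and has CCGGAA, the core of the sites of ETS factors, in capitals.
Sec24a to Sar1b: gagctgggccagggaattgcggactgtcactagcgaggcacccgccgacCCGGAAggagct
CCGGAA was found on either strand in 12.6% of all 250-base windows. It is the only motif reported for genes other than Mia2, though the others were searched there too. Among the 9 windows that RefSeq gave for 8 of the 10 genes, those of Sar1b, Sec13, Sec23a, Sec24a and Sec31a held it, and those of Mia2, Mia3 and Sec23b did not. The windows of Sec24a and Sar1b overlap, so they are not separate observations.

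The outer cage showed small differences. Sec13, which also serves in the nuclear pore, measured 40.9 and 49.7 CPM in the controls and 41.2 and 46.6 CPM with restricted sleep. Its groups overlapped, with a log2 change of -0.05 (SE 0.25). Sec31a, its cage partner, measured 69.9 and 69.9 CPM, then 71.7 and 81.6 CPM, a log2 change of 0.13 (SE 0.22). The forced activity libraries of Sec31a were nearly equal, and only sleep restriction 2 stood clearly above them. Without that library the log2 change of Sec31a was 0.03.

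**Figure D2:**
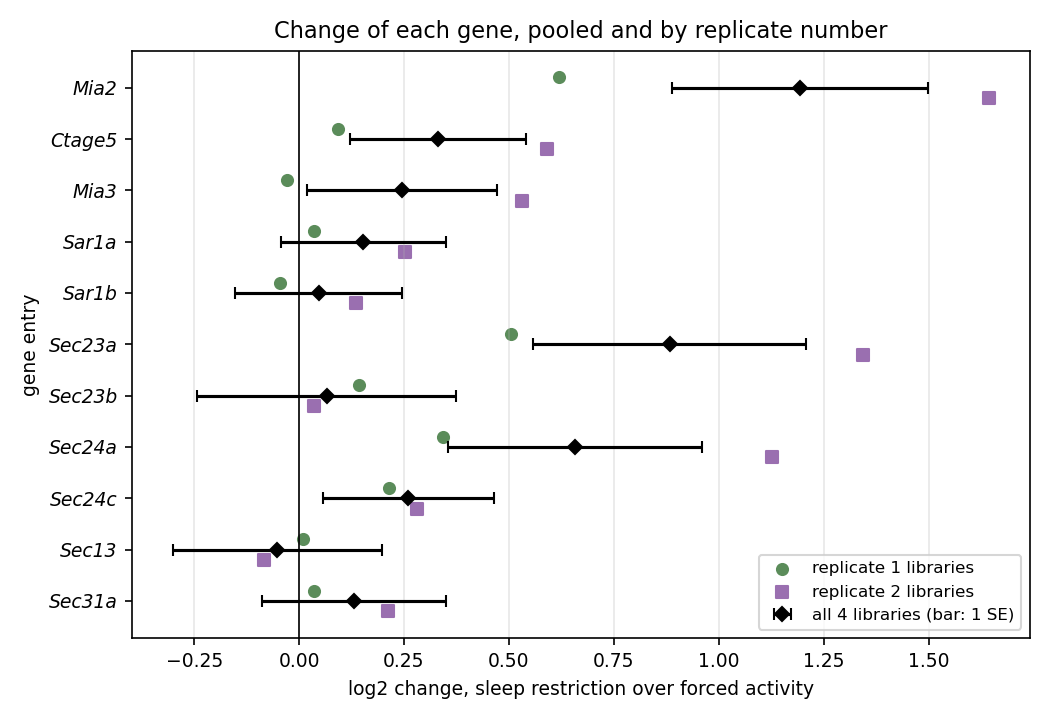
Log2 change of sleep restriction over forced activity for 11 gene entries, from all 4 libraries (black, bar 1 SE), from the replicate 1 libraries (green circles) and from the replicate 2 libraries (purple squares). Mia2, Sec23a and Sec24a lie farthest to the right, and the change is larger in replicate 2 than in replicate 1 for 9 of the 11 entries, all but Sec23b and Sec13.

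Across the 10 genes, 9 had a log2 change above 0 and 1 below, with a median of 0.20, against a median of 0.00 over the 4986 genes tested, of which 52.2% were above 0. In 6 of the 10 (Mia2, Sar1a, Sec31a, Sec23a, Sec24a and Sec24c) both sleep restriction libraries were above both forced activity libraries, a pattern found in 16.8% of tested genes, and in 0 of the 10 both were below, against 15.5%. Because the set was built on this contrast, nothing is read from these shares. All 10 passed the filter on low counts. Mia2, Sec23a and Sec24a did so with both sleep restriction libraries and 1 forced activity library above the filter level of 19.3 CPM, and the other 7 with all 4 libraries.

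None of the 10 genes was called by edgeR's quasi-likelihood test at an adjusted p under 0.05, where 0.0201% of tested genes were. At an unadjusted p under 0.05 there were 2, Mia2 and Sec23a, against 4.25% of tested genes. DESeq2 called 0 and had 0 of them at an unadjusted p under 0.05. With 2 libraries against 2, the smallest p that an exact two-sided permutation test can give is 0.333, so no single gene can be tested that way.

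Where each library stood also differed. Sleep restriction 2 was the highest library for 7 of the 10 genes and the lowest for 0. Over all tested genes it was the highest in 32.37% and the lowest in 30.77%, more often than any other library in both directions. Forced activity 2 was the lowest for 4 (Mia2, Mia3, Sec23a and Sec24a) and over all tested genes in 27.64%. Forced activity 1 was the lowest for 5, all the others except Sar1b, and over all tested genes in 21.92%.

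**Figure D3:**
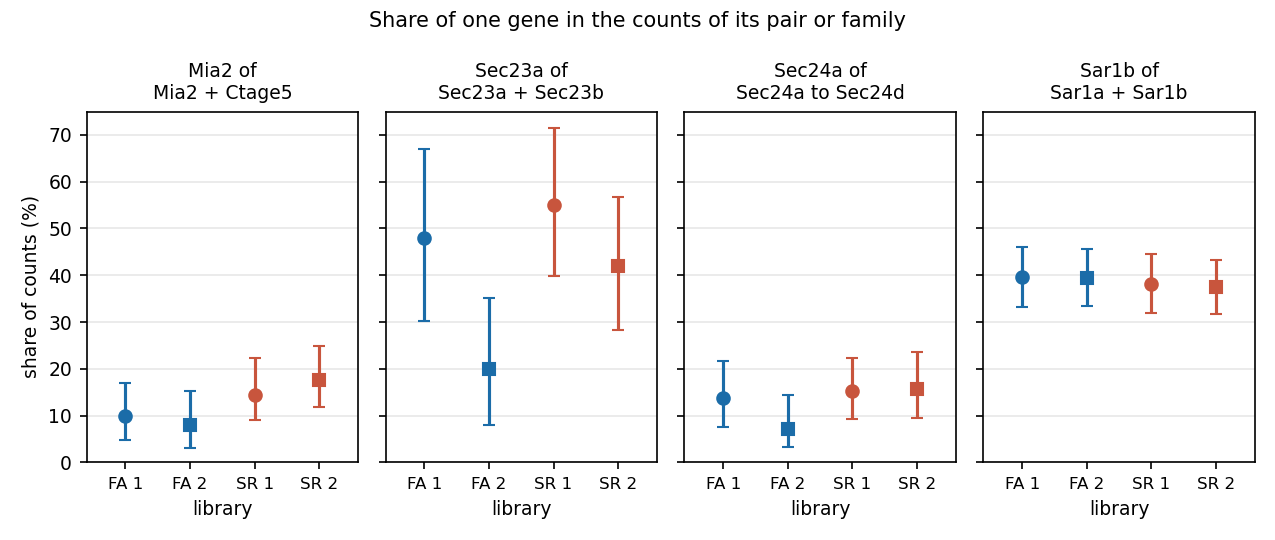
Share of counts (%) that Mia2, Sec23a, Sec24a and Sar1b take of their pair or family in each library (FA for forced activity, SR for sleep restriction). Bars are binomial 95% intervals that take rounded counts as single draws of reads and cover counting error only. The Sar1b share stays between 37.41% and 39.53%, while Sec23a falls to 20% in forced activity 2 alone.

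The remaining COPII genes had changes close to 0. Of 7 listed genes 5 were tested, 2 with a log2 change above 0 and 3 below, and their median was -0.02. Sec16a and Sec16b, scaffolds of the exit sites, had log2 changes of 0.16 (SE 0.21) and 0.12 (SE 0.22). Preb, which switches Sar1 on, had 50.2 and 66.2 CPM in the controls and 60.9 and 46.6 CPM with restricted sleep, and the groups overlapped. Tfg, which organises the exit sites, had a log2 change of -0.02 (SE 0.29), and Sec24d, another cargo-binding form, had -0.06 (SE 0.25). Sec24b, with 11.7 to 19.9 CPM, and Sec31b, with 0.81 to 10.6 CPM, lay under the filter. Preb, Tfg, Sec24b, Sec24d and Sec31b are named for their roles and after their values were seen. Sec24a held 13.84% and 7.04% of the counts of the 4 Sec24 genes in the controls and 15.18% and 15.65% with restricted sleep.

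Other cargo receptors, a list that also holds Ctage5, were mixed, with 7 of 14 tested above 0 and 7 below, a median of -0.06 and 0 called. Tmed9, a p24 family receptor, was lower in both sleep restriction libraries, at 158 and 139 CPM in the controls against 115 and 105 CPM, a log2 change of -0.41 (SE 0.21). Surf4, a receptor for lipoprotein export named for that role and after its values were seen, measured 47.2 and 27.1 CPM, then 37.7 and 15.5 CPM. It was low in both replicate 2 libraries, and the groups overlapped.

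The COPI coat, which returns proteins from the Golgi to the ER, had 9 of 13 tested genes above 0 and a median of 0.08. Its subunit Copb2 was at 46.4 and 39.3 CPM in the controls and 54.9 and 58.3 CPM with restricted sleep, a log2 change of 0.37 (SE 0.24), while Arfgap2, which acts on the coat's GTPase, had -0.39 (SE 0.22). Tethers and SNAREs, the proteins that dock and fuse vesicles, had 11 of 18 above 0 and a median of 0.04. Their examples were Scfd1, a SNARE regulator, at 0.39 (SE 0.29) and the SNARE Use1 at -0.34 (SE 0.24). Of the genes that ubiquitinate Sec31 to enlarge vesicles 3 were tested, with a median of 0.04, and Pdcd6 had -0.20 (SE 0.24) and Cul3 0.16 (SE 0.24).

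Among 14 tested genes of lipoproteins and their assembly, the cargo of this route, 4 had a log2 change above 0 and 10 below, with a median of -0.14 and 0 called. In 7 of the 14 both sleep restriction libraries were below both forced activity libraries, against 15.5% of tested genes, and in 2 both were above, against 16.8%. Whether this list differs from Mia2 was not tested. Apoa1, the main protein of high density lipoprotein, measured 1781 and 2065 CPM in the controls and 1438 and 1160 CPM with restricted sleep, a log2 change of -0.56 (SE 0.20) with no overlap. Apoc3 had -0.28 (SE 0.20). Apob, the scaffold of very low density lipoprotein, had 5016 and 3835 CPM, then 4526 and 4650 CPM, and overlapped. Mttp, which loads lipid onto Apob, had 229 and 226 CPM, then 220 and 216 CPM, a log2 change of -0.06 (SE 0.19). Apob and Mttp are named for their roles and after their values were seen.

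Collagen genes and their folding enzymes had 5 of 11 tested above 0 and a median of 0.00. Col1a2, named after its values were seen, was at 0 in every library and was not tested. Col1a1 ranged from 15.5 to 68.6 CPM and was highest in forced activity 1, and Col6a2 had a log2 change of -0.41 (SE 0.28). Genes of ER stress and of secretory transcription had 7 of 14 above 0 and a median of 0.04. The stress sensor Atf6 measured 44.3 and 41.3 CPM in the controls and 67.7 and 54.4 CPM with restricted sleep, a log2 change of 0.48 (SE 0.24), and the ER chaperone partner Sdf2l1 had -0.71 (SE 0.30). Of the 8 lists, 0 genes were called by edgeR, against 0.0201% of all tested genes. In the same test 2 genes, Apoa1 and Sdf2l1, had an unadjusted p under 0.05, against 4.25% of all tested genes. Each was 1 of 14 tested in its list, and the other lists had 0, so nothing is read from this count.

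**Figure D4:**
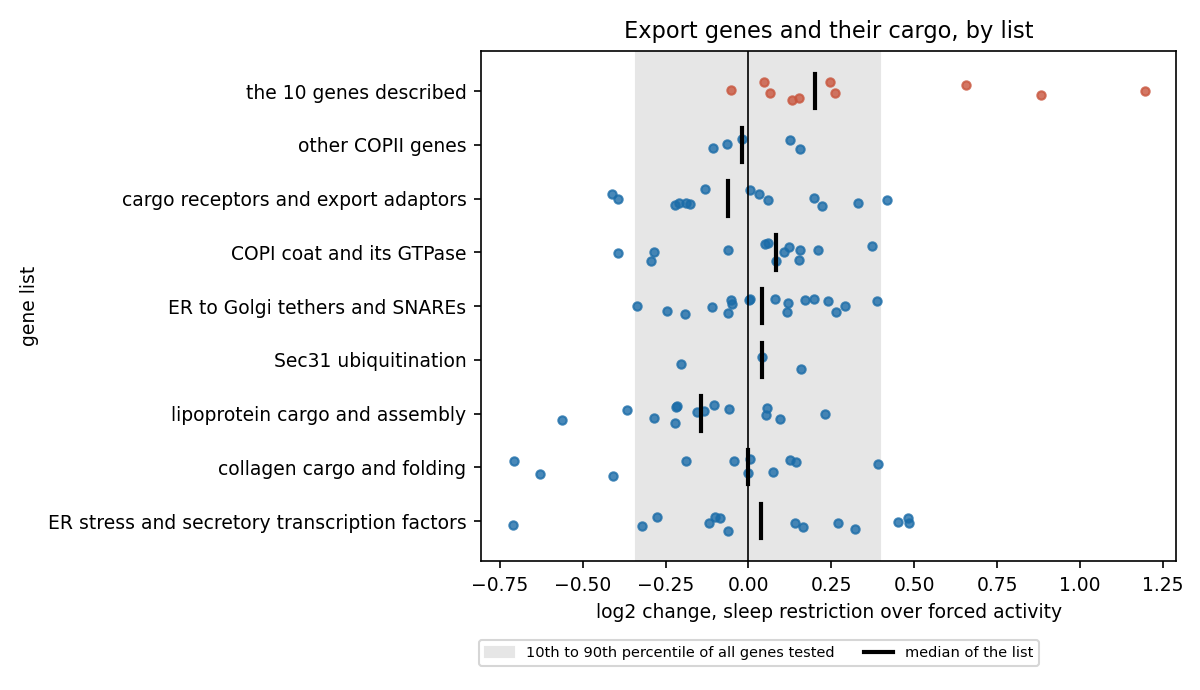
Log2 change of sleep restriction over forced activity for each tested gene (dots) of the 10 genes described and of 8 related lists, with the list's median (black line) and the range from the 10th to the 90th percentile of all 4986 tested genes (grey, -0.34 to 0.40). Mia2, Sec23a and Sec24a lie outside the grey range and the other 7 inside it.

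The genes whose pattern over the 4 libraries was nearest to that of Mia2 were sought among the other 4985 tested genes. Nearness was the root mean square difference of log2 CPM after each gene's mean was subtracted. The 5 nearest were Esf1 (0.07), a nucleolar protein, Esrrg (0.08), an orphan nuclear receptor, Bcl6 (0.09), a transcriptional repressor, Top1 (0.10), a DNA topoisomerase, and Sez6 (0.11). Bcl6, for example, had 25.7 and 16.5 CPM in the controls and 36.7 and 66.1 CPM with restricted sleep, with the same library order as Mia2. Within the export machinery the nearest were Sec23a, at rank 66 with 0.29, and Sec24a, at rank 115 with 0.32. Ctage5 stood at rank 351, and Sec23b was the farthest, at rank 2850. With 4 libraries these ranks are a description, and they say nothing of shared function or control.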

How the data were processed

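Liver messenger RNA was measured in 4 libraries, 2 per group. The authors deposited estimated counts per Ensembl gene, each a multiple of 0.1; per the submitters' processing notes, CASAVA, STAR 2.4.1d and rn6 were used, with no roles given, and no source used here names the program that counted reads. The table's own name marks sense-strand counts averaged over draws, and it also holds MIN, which is not explained in the sources used here. Sleep restriction 2 holds whole numbers at 32544 genes.

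Values were rounded and fitted over all genes with edgeR 4.0.16 (R 4.3.3): TMM factors of 0.9718 to 1.037, filterByExpr with a minimum count of 10, robust quasi-likelihood dispersions (legacy off), a prior count of 2 and Benjamini-Hochberg adjustment, called under 0.05. CPM divides deposited counts by the library total times its factor. The SE is the size of the log2 change over the square root of F. DESeq2 1.42.0 was an alternative, one of 12. The fit was tested on simulated data. Members and gene lists were chosen with earlier results of these data known. Named genes are the 10 members, the 2 smallest unadjusted p per list, and the 5 nearest to Mia2. Other genes are marked. Sequences are from RefSeq (GRCr8), with windows for 8 of the 10 genes.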

Additional observations from a re-analysis of the deposited data

How the results depend on the processing

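The number of genes called over the whole table was 1, lower under sleep restriction, and it was also 1 with DESeq2, other scalings, the 5 CPM filter and unrounded values. By edgeR it was 0 without a gene filter and 0 without robust estimation, with 342 and 202 genes at an unadjusted p under 0.05. It ran from 0 to 0 with each library left out in turn, with 58 to 427 genes at an unadjusted p under 0.05, and there the single library left in a group borrows its spread from the other group. DESeq2 called 1 gene on all 4 libraries. Nothing in the labels ties same-numbered libraries to 1 animal, litter or day, and they were not treated as paired (their deviations correlated at 0.21). With the replicate block 11 genes were called, 2 of them higher, and none was among the 10 described. The cause was not tested.

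The 10 genes kept the sign of their log2 change under the 8 alternatives that leave out no library, and in 0 cases was one called (lowest adjusted p 0.207 in edgeR, for Mia2 with the replicate block). With 1 library left out, Sar1b (-0.05 to 0.13), Sec13 (-0.18 to 0.10) and Sec23b (-0.25 to 0.47) changed sign. The other 7 did not, but Mia2 (0.92 to 1.47), Mia3 (0.02 to 0.50), Sec23a (0.44 to 1.47) and Sec24a (0.30 to 1.09) varied widely. Sar1a (0.03 to 0.25) and Sec31a (0.03 to 0.21) came close to 0 without sleep restriction 2. Depth limits Mia2, Sec23a and Sec24a most, with as few as 7.3, 7.4 and 7.5 counts in a library.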
